A study of Mus musculus with 4 samples.

Results

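The genes described here are 9 heat shock and chaperone genes, Hspa1a, Hspa1b, Hspa5, Hspa8, Hsp90aa1, Hsp90ab1, Hspb1, Dnaja1 and Dnajb1, chosen by name. All 9 were listed in each of the 4 deposited tables, which hold 11242 genes in common and 14561 in any. They were followed in mouse alveolar type I (AT1) cells, flat cells that line most of the alveolar surface, at postnatal days 3, 15 and 60 (P3, P15 and P60), and in alveolar type II (AT2) cells, the cuboidal cells that make surfactant, at P60.

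Cells of each group were sorted from lungs of tamoxifen-treated mice of mixed FVB/C57BL6 background carrying Sftpc-CreER, Rosa26-Zsgreen and Hopx-RFP. The Sftpc promoter drives the recombinase, so green cells are cells that used this AT2 gene when tamoxifen was given, and their descendants. AT1 cells were taken as RFP+Pdpn+GFP-CD45- and AT2 cells as GFP+CD45-, so the AT1 gate left out green cells. The digestion differed between cell types: elastase and type I collagenase were added to neutral protease and DNase I for AT1 cells but not for AT2 cells. Each group is 1 library made with the 10x 3' protocol, and the number of animals behind it was not given in the sources used here. No difference below has a replicate check. Age, library and handling cannot be told apart, and neither can cell type and digestion. All intervals are at 95% and cover counting error only. Those of levels and ratios take UMIs as independent, so they are too narrow where a gene's UMIs gather in few cells.

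The libraries held 3149 (AT1 P3), 2940 (AT1 P15), 1337 (AT1 P60) and 2093 (AT2 P60) cells, with median depths between 4864 and 7477 unique molecular identifiers (UMIs, each 1 captured transcript) per cell, and any pair of libraries shared 3 to 15 cell barcodes. Clusters that held AT1 or AT2 markers and were not led by markers of another type made up 2833, 2647, 1167 and 2052 cells, which are called AT1-like and AT2-like below. Levels of Ager, an AT1 membrane receptor, and Sftpc, a surfactant protein of AT2 cells, describe these cells. They do not check the choice, since both genes are among the markers that chose the clusters. Levels are in CPM, a gene's UMIs per 1000000 UMIs summed over the same cells. Ager stood at 16805, 35014 and 22160.5 CPM in AT1-like cells of rising age and at 1593 CPM in AT2-like cells. Sftpc stood at 309, 125 and 219.7 CPM in AT1-like cells and at 135571 CPM in AT2-like cells. Over all cells, before that choice, Ager stood at 15018, 31966 and 21138 CPM in the AT1 libraries and at 1578 CPM in the AT2 library. Sftpc stood at 3531, 1526 and 1582 CPM in all cells of the AT1 libraries and at 134399 CPM in those of the AT2 library.

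Chaperones bind unfolded or partly folded proteins and help them reach or keep their shape. HSP70 proteins bind short unfolded stretches in cycles of ATP hydrolysis that J-domain proteins such as Dnaja1 and Dnajb1 start, and HSP90 proteins take over later steps for kinases, receptors and other clients. Small heat shock proteins such as Hspb1 hold unfolding proteins without ATP, and Hspa5, also known as BiP, is the HSP70 of the endoplasmic reticulum and is induced by the unfolded protein response. Hspa1a, Hspa1b, Hspb1 and Dnajb1 are classic targets of heat shock factor 1, which binds repeats of GAA and TTC, while Hspa8 and Hsp90ab1 are made in most cells at all times. Immediate early genes and some heat shock genes are also known to respond when tissue is taken apart into single cells.

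The promoters of the inducible genes are shown because they hold the recognition letters of this response. In mm10 these genes lie at chr17:34969190-34972156 on the minus strand (Hspa1a), chr17:34956436-34959238 on the minus strand (Hspa1b) and chr5:135887919-135889563 on the plus strand (Hspb1), and all are protein coding. The sequences are the 250 bases before the RefSeq start on GRCm38.p6, at chr17:34972157-34972406 (-), chr17:34959239-34959488 (-) and chr5:135887669-135887918 (+). Capitals mark the heat shock element pair GAANNTTC.
Hspa1a: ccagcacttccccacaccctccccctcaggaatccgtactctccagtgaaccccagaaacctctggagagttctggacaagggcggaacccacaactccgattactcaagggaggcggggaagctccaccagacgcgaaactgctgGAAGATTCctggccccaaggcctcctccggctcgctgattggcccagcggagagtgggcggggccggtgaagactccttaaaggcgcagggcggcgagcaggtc
Hspa1b: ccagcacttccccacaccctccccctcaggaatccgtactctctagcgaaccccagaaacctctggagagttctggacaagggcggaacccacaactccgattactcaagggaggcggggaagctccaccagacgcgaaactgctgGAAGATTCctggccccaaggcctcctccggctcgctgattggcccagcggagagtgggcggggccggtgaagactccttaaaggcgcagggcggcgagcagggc
Hspb1: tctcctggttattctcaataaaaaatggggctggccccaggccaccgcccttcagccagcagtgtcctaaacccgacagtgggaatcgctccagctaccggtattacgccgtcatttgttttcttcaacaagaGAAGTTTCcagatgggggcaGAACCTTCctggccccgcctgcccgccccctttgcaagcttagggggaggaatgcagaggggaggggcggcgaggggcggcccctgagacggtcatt

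The pair reads the same on both strands and stood from -104 to -97 in Hspa1a and in Hspa1b. Hspb1 held 2, from -117 to -110 and from -97 to -90. Over the 250 bases, Hspa1a and Hspa1b differed at 3 positions, C44T, T47C and T249G, counted from the 5′ end with the Hspa1a base first. Of 27025 promoters of the same length, 6.78% held GAANNTTC, 7.1% held TTCNNGAA and 12.9% held either. RefSeq windows matched 6 of the 9 genes, and those of Hspa8, Hsp90aa1 and Hsp90ab1 were not analysed here. For Dnaja1, 1 of 3 windows held GAANNTTC, while neither window of Dnajb1 held GAANNTTC or TTCNNGAA, which says only that these letters are not in those bases. Hspa5 held the endoplasmic reticulum stress element, CCAAT and CCACG with 9 bases between them, found on either strand in 0.122% of the promoters, and no heat shock pair. Both sites are shown with their flanks and the motif in capitals, at chr4:40722333-40722362 (+) and chr2:34772020-34772048 (+).
Dnaja1: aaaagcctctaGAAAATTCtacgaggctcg
Hspa5: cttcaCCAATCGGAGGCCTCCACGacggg

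The other members are also protein coding. In mm10 Hspa5 lies at chr2:34771970-34777547, Hspa8 at chr9:40800984-40810087, Dnaja1 at chr4:40722150-40737149 and Dnajb1 at chr8:83608193-83612653, all on the plus strand. Hsp90aa1 at chr12:110690605-110702728 and Hsp90ab1 at chr17:45567775-45573271 lie on the minus strand. Hspa8 and both HSP90 genes have processed pseudogenes of like sequence, and their counts are uncertain to the extent that reads were split with these.

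The inducible HSP70 genes were rare in all 4 libraries, and Hspa1a was highest in AT1-like cells at P3. Hspa1a was counted 337, 76 and 11 times in AT1-like cells of rising age and 29 times in AT2-like cells. This gave 14.9 CPM (13.4 to 16.6), 5.53 CPM (4.36 to 6.92), 1.73 CPM (0.865 to 3.1) and 2.84 CPM (1.9 to 4.08). The P3 and P15 libraries stood apart from each other and from both P60 libraries, and the intervals of the P60 libraries overlapped. Hspa1a was 2.7-fold lower at P15 than at P3 (2.1 to 3.51), 3.19-fold lower at P60 than at P15 (1.69 to 6.66) and 8.61-fold lower at P60 than at P3 (4.75 to 17.4). Summed over all cells in place of AT1-like cells, its log2 ratio of P15 over P3 was -0.27 against -1.43. The AT2 over AT1 ratio at P60 was 1.64 (0.795 to 3.64), so no difference was detectable at this depth.

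The gene next to it behaved otherwise on the same measure. Hspa1b stood at 2.48, 2.18 and 2.21 CPM in AT1-like cells of rising age and at 1.47 CPM in AT2-like cells, from 56, 30, 14 and 15 UMIs. All neighbours in this order overlapped, and the P60 over P3 ratio of 0.889 (0.457 to 1.62) lay apart from that of Hspa1a, 0.116 (0.0574 to 0.21). Its AT2 over AT1 log2 ratio was -0.59 by the total of UMIs and 0.07 by a trimmed mean of log ratios, so it too gave no direction. The coding parts of both genes are nearly the same, and 1882 of 2938 windows of 30 bases along the Hspa1a transcript (64.1%) also occur in Hspa1b. In the last 300 bases, where 3' reads begin, 0 of 271 windows were shared. How reads that fit both genes were counted was not given in the sources used here.

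Few cells carried the Hspa1a UMIs. At P3, 193 of 2833 AT1-like cells held at least 1, and the 28 cells that make up the top 1% held 40.4% of its UMIs, with up to 14 in a cell. This share is larger for genes with fewer UMIs. Hspa1b, with 56 UMIs, had 60.7% in the top 1% of cells, Dnajb1, with 1796, had 11.1%, and Hspa8, with 23900, had 3.31%. With each cell thinned to 2000 UMIs, which left out 0, 210, 121 and 73 shallower cells, Hspa1a had a UMI in 2.4% (1.87 to 3.03) of AT1-like cells at P3, 1.11% (0.731 to 1.61) at P15 and 0.191% (0.0232 to 0.689) at P60, and in 0.455% (0.208 to 0.862) of AT2-like cells. Unthinned shares were 6.81%, 2.46%, 0.943% and 1.27%. Sftpc, which AT1 cells should lack, was seen in 33%, 14% and 35.4% of thinned AT1-like cells, so a share as low as that of Hspa1a is not by itself a sign of expression. Sftpc is an unlike yardstick, since P3 cells outside the AT1-like class held 21845 CPM of it against 29.5 CPM of Hspa1a.

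Hspa1a was far higher in some of the other cells that passed the AT1 sort. At P15 a cluster of 88 cells led by fibroblast and smooth muscle genes (Eln, Acta2, Mfap4, Tagln) held 183 CPM (144 to 228), and a cluster of 75 cells with immune and mesothelial genes (Tyrobp, Cd52, Upk3b) held 138 CPM (104 to 180.5). At P3 a cluster of 142 cells led by club and ciliated cell genes held 49.7 CPM. The level in AT1-like cells was 50.5%, 6.4% and 12.4% of that in all other cells of the library at P3, P15 and P60. For Sftpc, whose UMIs in AT1-like cells can come from free RNA of other cells, the same share was 1.41%, 0.949% and 2.02%. For Scgb1a1, a secreted protein of club cells, it was 4.56%, 0.651% and 92.6%, and the P60 library had no club cell cluster. The part of free RNA in the Hspa1a level was not tested.

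**Figure D1:**
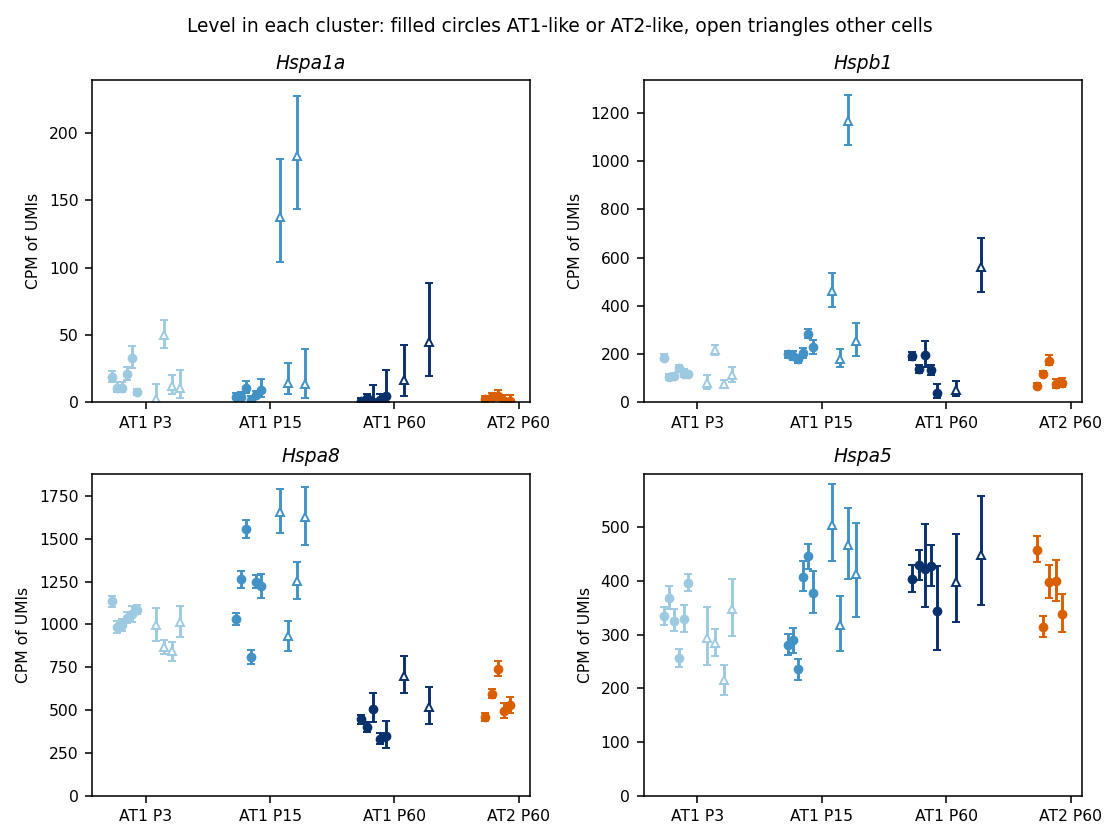
CPM of Hspa1a, Hspb1, Hspa8 and Hspa5 in each cluster of the 4 libraries, with filled circles for AT1-like or AT2-like clusters, open triangles for other cells and bars for 95% Poisson intervals. Hspa1a reached 183 and 138 CPM in clusters of other cells at P15 and stayed at 32.6 CPM or below in every AT1-like or AT2-like cluster.

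Hspa8, the constitutive HSP70 of the cytosol, and Dnajb1, the J-domain protein that pairs with inducible and constitutive HSP70, were, besides the rare Hspa1a, the members that stood at least 2-fold lower in adult AT1-like cells. Hspa8 stood at 1059 CPM (1046 to 1073) at P3, 1188 CPM (1169.6 to 1206) at P15 and 409 CPM (394 to 425) at P60, and at 559 CPM (544 to 573) in AT2-like cells. Both young libraries were high and both P60 libraries low, and no neighbours in this order overlapped. Hspa8 was 2.9-fold lower at P60 than at P15 (2.78 to 3.03) and 2.59-fold lower than at P3 (2.48 to 2.7). Between P3 and P15 it was 1.12-fold higher (1.1 to 1.14), but 0.05 lower on the log2 scale when the total left out genes of ribosomal proteins, mitochondria and haemoglobin. After thinning, Hspa8 was seen at P3 in 86.1% of AT1-like cells, at P15 in 85.4%, at P60 in 51.2% and in 61.9% of AT2-like cells.

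Dnajb1 stood at 79.6 CPM (75.9 to 83.4) at P3, 62.3 CPM (58.2 to 66.7) at P15 and 24.9 CPM (21.2 to 29.1) at P60, and at 21.9 CPM (19.2 to 25) in AT2-like cells. The intervals of both P60 libraries overlapped. It was 1.28-fold lower at P15 than at P3 (1.18 to 1.39), 2.5-fold lower at P60 than at P15 (2.11 to 2.99) and 3.2-fold lower at P60 than at P3 (2.72 to 3.78). Dnaja1, the other cytosolic J-domain protein, had the same order over AT1 ages with smaller differences. It stood at 150.0, 135 and 101 CPM in AT1-like cells and at 133 CPM in AT2-like cells, which overlapped P15. It was 1.49-fold lower at P60 than at P3 (1.37 to 1.62) and 1.32-fold higher in AT2-like than in AT1-like cells (1.2 to 1.45). For Dnajb1 the AT2 over AT1 ratio was 0.881 (0.716 to 1.09), and its log2 value of -0.18 turned to 0.47 by a trimmed mean of log ratios and to 0.03 with ribosomal, mitochondrial and haemoglobin genes left out.

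**Figure D2:**
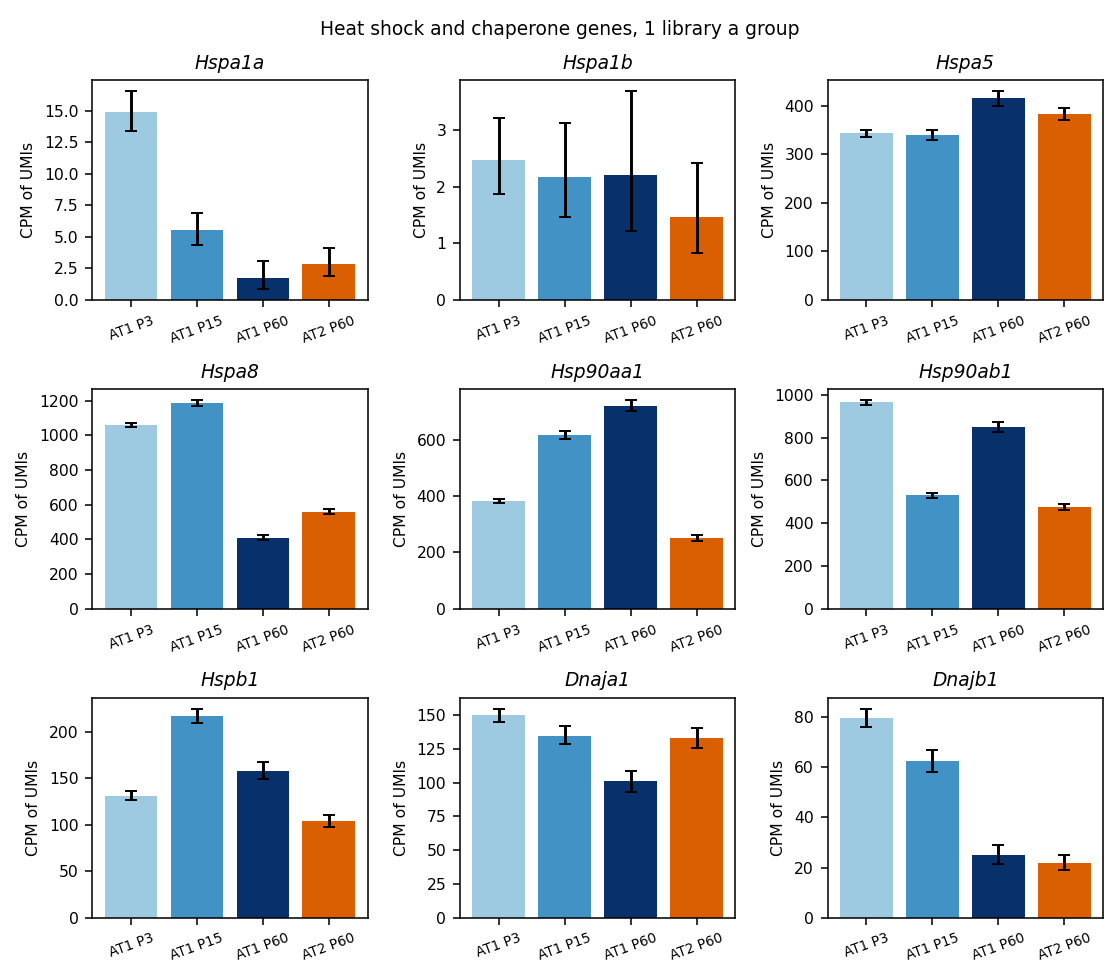
Level of each gene in CPM (bars) with 95% Poisson intervals in AT1-like cells of 3 ages and AT2-like cells at P60, 1 library a group, each panel on its own axis from 0. Hspa8 stood at 1059 and 1188 CPM in the young libraries against 409 and 559 CPM at P60, and Hsp90aa1 at 382, 618 and 721 CPM across the AT1 ages.

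The HSP90 genes differed in their order over the libraries. Hsp90aa1, the more stress-responsive form, stood at 382 CPM (374 to 390.1) at P3, 618 CPM (604 to 631) at P15 and 721 CPM (700.4 to 742) at P60, and at 252 CPM (242 to 262) in AT2-like cells. It was higher at each later AT1 age, by 1.62-fold (1.57 to 1.67) and 1.17-fold (1.13 to 1.21), which makes 1.89-fold (1.82 to 1.96) from P3 to P60. Hsp90ab1, the constitutive form, stood at 966 CPM (953 to 978), 531 CPM (519 to 543) and 850.4 CPM (828 to 873) at these ages and at 475 CPM (462 to 489) in AT2-like cells. It was lowest of the AT1 ages at P15, 1.82-fold below P3 (1.77 to 1.87), and 1.6-fold higher at P60 than at P15 (1.55 to 1.66). Between P3 and P60 it was 1.14-fold lower (1.1 to 1.17), and 0.01 higher on the log2 scale with Malat1 left out of the total.

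In AT2-like cells both HSP90 genes stood lower than in AT1-like cells of the same age. Hsp90aa1 was 2.86-fold lower (2.73 to 3.01) and Hsp90ab1 1.79-fold lower (1.72 to 1.86). Both kept this direction in each of 12 alternative settings, in which the log2 ratio ranged from -1.71 to -0.82 for Hsp90aa1 and from -1.03 to -0.14 for Hsp90ab1. The median log2 ratio of all genes compared was -0.73. Hsp90ab1, at -0.84 and percentile 45.9 of these genes, lay near it, and Hsp90aa1 stood at -1.52 and percentile 26.6. Hsp90aa1 was seen in 72.8% of thinned AT1-like cells at P60 and in 36.9% of AT2-like cells. Hspa8 and Dnaja1 were higher in AT2-like cells, Hspa8 by 1.36-fold (1.3 to 1.43).

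Hspb1, the small heat shock protein of the list, was highest at P15. It stood at 131 CPM (127 to 136), 217 CPM (209 to 225) and 158 CPM (149 to 168) in AT1-like cells of rising age and at 104 CPM (97.7 to 110.3) in AT2-like cells, and no neighbours in this order overlapped. It was 1.65-fold higher at P15 than at P3 (1.57 to 1.74) and 1.37-fold lower at P60 than at P15 (1.28 to 1.47). The AT2 over AT1 log2 ratio was -0.61 by the total of UMIs but 0.05 and 0.09 by a trimmed mean of log ratios and a median of ratios. The P15 cluster led by fibroblast and smooth muscle genes held 1166 CPM (1066 to 1273), and all other P15 cells together held 515 CPM.

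Hspa5 was the flattest of the better counted members. It stood at 343 CPM (335 to 350.4), 339 CPM (329.8 to 349) and 415 CPM (399 to 431) in AT1-like cells and at 383 CPM (371 to 396) in AT2-like cells. P3 and P15 overlapped, and the P60 libraries were higher. It was 1.21-fold higher at P60 than at P3 (1.16 to 1.27). This log2 ratio of 0.28 ranged from 0.03 to 0.47 in 12 alternative settings, and the median of all genes compared was 0.12. Its AT2 over AT1 log2 ratio was -0.11 by the total of UMIs but 0.54 by the trimmed mean, 0.58 by the median of ratios and 0.10 with ribosomal, mitochondrial and haemoglobin genes left out, so its direction depends on the scaling.

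Counts by size were read against all genes. A gene was compared where its higher library had at least 50 CPM and 30 UMIs, which kept 7 of the 9 members in each AT1 comparison and 6 at P60 between cell types. Hspa1a and Hspa1b never reached this minimum, and Dnajb1 did not at P60. From P3 to P15, 0 members were 2-fold higher and 0 lower, where 9.25% and 6.63% of all 3288 genes compared were, 15.9% in either direction. From P15 to P60, 0 were higher and 2 lower (Hspa8 and Dnajb1), where 3.85% and 4.47% of 3425 genes were, 8.32% in all. From P3 to P60 the counts were again 0 and 2, the same 2 genes, where 13.1% and 9.66% of 3459 genes were, 22.8% in all. These AT1 comparisons share libraries and are not independent. In AT2-like over AT1-like cells 0 were higher and 1 lower (Hsp90aa1), where 13.4% and 40.4% of 3501 genes were, 53.7% in all. The share of members past 2-fold was below that of all genes there and from P3 to P15, and above it from P15 to P60 and from P3 to P60. With 6 or 7 members compared, 1 or 2 genes decide such a share. The median log2 ratio of the members was -0.01, -0.42, -0.18 and -0.36 in these comparisons, against 0.13, -0.04, 0.12 and -0.73 over all genes compared.

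**Figure D3:**
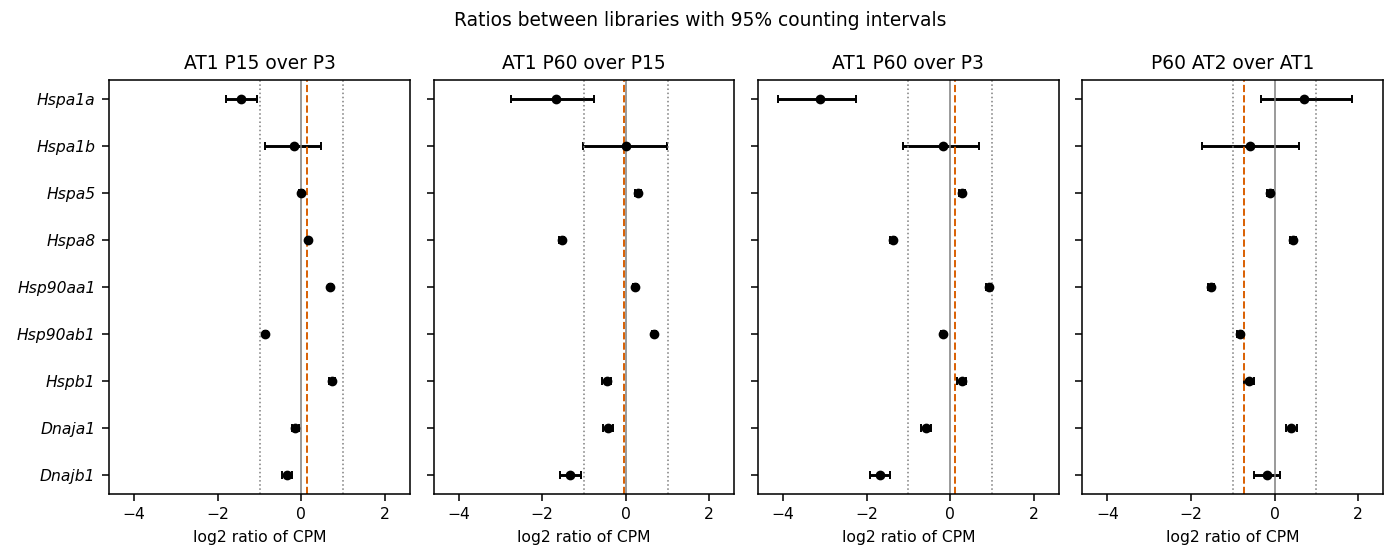
Log2 ratio of CPM (points) with 95% counting intervals for each gene in the 4 comparisons, with dotted lines at 2-fold and a dashed line at the median of all genes compared. Hspa8 and Dnajb1 lie past 2-fold lower at P60 against either younger age, and the dashed line stands at -0.73 in the cell type comparison.

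The libraries differed in composition, and the ratios moved with the way of scaling. Ribosomal protein genes took 20.4%, 7.31% and 4.77% of AT1-like UMIs in order of age and 14.5% in AT2-like cells, and Malat1, a nuclear RNA, took 4.26%, 6.68%, 16% and 4.21%. In AT2-like over AT1-like cells the median log2 ratio of all genes was -0.73 by the total of UMIs, -0.08 by the trimmed mean and -0.03 by the median of ratios. The share of higher among all 2-fold genes moved with it, from 24.9% to 53.3% and 55.5%. With these scalings Hspa8 and Dnaja1 passed 2-fold higher in AT2-like cells, at 1.10 and 1.15 on the log2 scale for Hspa8, and Hsp90aa1 at -0.86 and -0.82 no longer passed 2-fold lower. Between cell types the median of all genes was -0.51 with ribosomal, mitochondrial and haemoglobin genes left out, and -0.92 without Malat1. Which genes set these shifts was not tested. From P3 to P60 the share of higher genes moved from 57.6% to 38.3% by the trimmed mean, 39.1% by the median of ratios, 37.6% without ribosomal, mitochondrial and haemoglobin genes and 71.4% without Malat1. From P15 to P60 it moved from 46.3% to 30.8% by the trimmed mean, 32.1% by the median of ratios and 68% without Malat1, and from P3 to P15 from 58.2% to 36.9% without ribosomal, mitochondrial and haemoglobin genes. Hspa8 and Dnajb1 remained past 2-fold lower at P60 against both younger ages under each of these scalings.

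**Figure D4:**
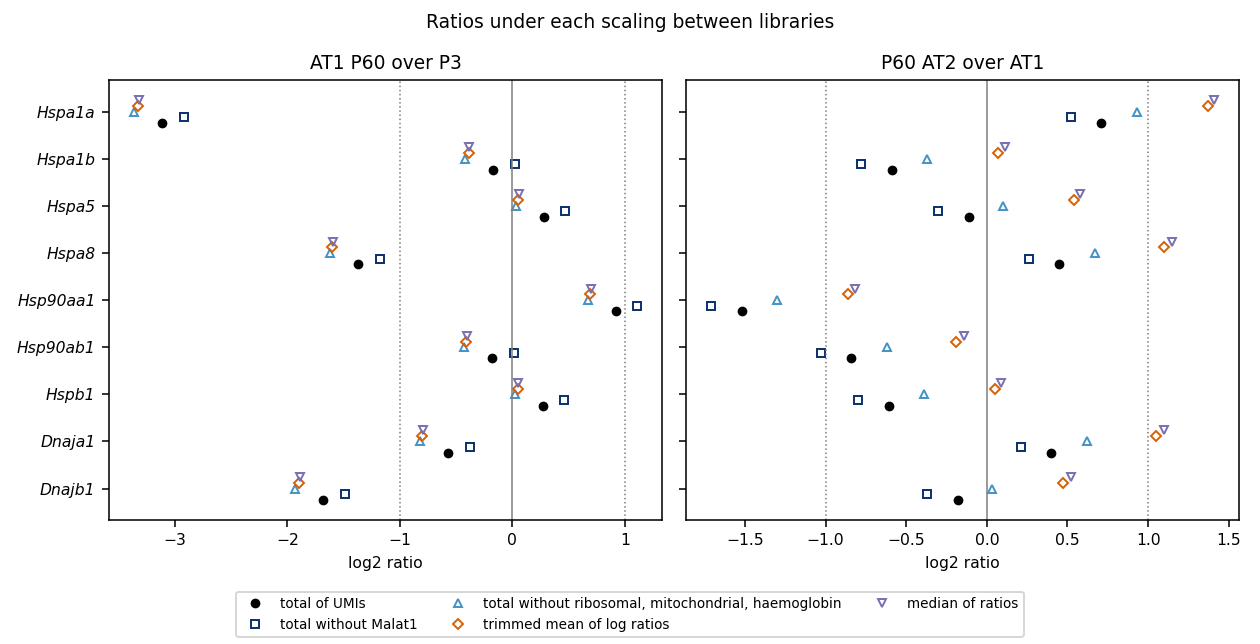
Log2 ratio of each gene for AT1 P60 over P3 and for P60 AT2 over AT1 under 5 ways of scaling one library to the other (symbols), with dotted lines at 2-fold. In the cell type comparison Hspb1 goes from -0.61 to 0.09 and Hspa5 from -0.11 to 0.58, while the Hsp90aa1 values stay below 0.

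Immediate early genes, which cells switch on within minutes of a stimulus, were highest at P3 as a sum but not gene by gene. Of a list of 30 such genes, including Fos, Jun, Egr1 and Atf3, 29, 28, 24 and 26 were listed at P3, P15, P60 and for AT2-like cells, of which 0, 1, 0 and 0 were at 0. Together they took 11186, 7571 and 5713 CPM in AT1-like cells of rising age and 2616 CPM in AT2-like cells. At P60 Ier3, which was 3.56-fold higher than at P3, alone took 1879 CPM, and Jund, Klf2, Gadd45b and Gadd45g also stood higher at both later ages than at P3. Of those compared, 8 of 21 were 2-fold lower and 1 higher at P15 than at P3, where 6.63% and 9.25% of all genes were. At P60 against P15, 11 of 19 were lower and 0 higher, where 4.47% and 3.85% of all genes were. At P60 against P3, 13 of 21 were lower and 2 higher, where 9.66% and 13.1% of all genes were. The list medians were -0.33, -1.18 and -1.41, against 0.13, -0.04 and 0.12 over all genes. In AT2-like over AT1-like cells 6 of 17 were higher and 6 lower, where 13.4% and 40.4% of all genes were. Atf3, a stress-induced transcription factor, stood at 391, 51.7 and 18.9 CPM in AT1-like cells and at 14.5 CPM in AT2-like cells, and Fos at 2372, 521, 96.1 and 264 CPM.

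At P3 and P15, AT1-like cells with a high share of immediate early UMIs also held more Hspa1a and Dnajb1. AT1-like cells at P3 were ranked by that share and cut into 4 groups of equal size, which held 3.42, 10.5, 13.5 and 31.3 CPM of Hspa1a from lowest to highest. The lowest group (1.99 to 5.47) and the highest (26.8 to 36.3) did not overlap. Over thinned AT1-like cells at P3 the variance of Hspa1a counts was 1.46 times their mean, so its intervals are too narrow. Dnajb1 stood at 55.3, 66.5, 83.6 and 110.4 CPM in these groups. Hspa8 was also higher in the highest group, at 1092 (1065 to 1119.7) against 1001 CPM (973 to 1029) in the lowest. Hspa5 stood at 341, 335, 343 and 351 CPM, with all intervals overlapping, and Hsp90ab1 was slightly lower in the highest group, at 929 (904 to 955) against 988 CPM (960.1 to 1016) in the lowest. At P15 the lowest and highest groups held 2.65 and 10.3 CPM of Hspa1a, 44.7 and 83.3 CPM of Dnajb1, 1067 and 1298 CPM of Hspa8 and 369 and 295 CPM of Hspa5, so Hspa5 was lower where the other 3 were higher. Hsp90ab1 at P15 was lower as well, at 572 (545 to 599.7) and 474 CPM (451 to 497) in the lowest and highest groups. In AT2-like cells these groups held 1.28 (0.263 to 3.73) and 5.74 (3.22 to 9.47) CPM of Hspa1a, which overlapped, 17 and 29.9 CPM of Dnajb1 and 84.2 and 130.2 CPM of Hspb1. They held 484 (456 to 513) and 661 CPM (631 to 693) of Hspa8. In AT1-like cells at P60 Hspb1 stood at 144 and 193 CPM, and Hsp90ab1 at 816 (766 to 868) and 939 CPM (893 to 987), so Hsp90ab1 was higher in the highest group there, while Dnajb1 at 21.2 and 24.6 CPM and Hspa1a at 2.44 and 2.4 CPM overlapped. Hsp90aa1 at P60 was also higher in the highest group, at 641 (597 to 687) and 790.2 CPM (748 to 834). Hspa8 at P60, at 371 (337 to 406) and 393 CPM (363 to 424), overlapped. The groups also differed in depth, with a median of 4092 UMIs in the lowest and 5425 in the highest group at P15. The genes behind the share differed between libraries as well. From P3 to P60 in AT1-like cells, Fos went from 2372 to 96.1 CPM and Jun from 1611 to 165 CPM, while Ier3 went from 529 to 1879 CPM. Like shares at different ages thus need not mark the same state.

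**Figure D5:**
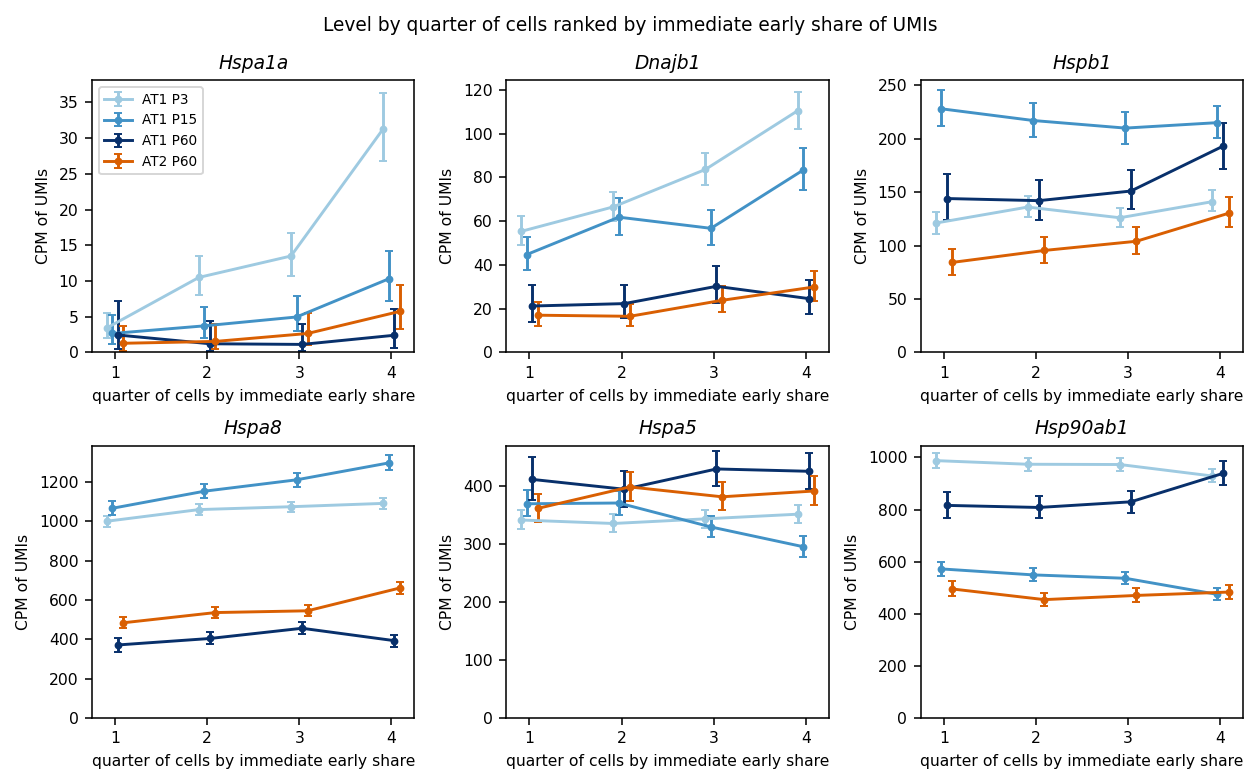
CPM of 6 members with 95% Poisson intervals in 4 groups of AT1-like or AT2-like cells ranked from lowest (1) to highest (4) share of UMIs in 30 immediate early genes, 1 line a library. At P3 Hspa1a goes from 3.42 to 31.3 CPM and Dnajb1 from 55.3 to 110.4 CPM, while Hsp90ab1 goes from 988 to 929 CPM.

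In the groups lowest in immediate early share, which took 3631, 4132 and 3409.8 CPM of these genes at P3, P15 and P60, Hspa1a did not differ detectably with age. It stood there at 3.42 (1.99 to 5.47), 2.65 (1.14 to 5.22) and 2.44 CPM (0.504 to 7.14), and all intervals overlapped. These intervals are wide, so a difference could be missed. Dnajb1 in the same cells stood at 55.3 (49 to 62.2), 44.7 (37.5 to 52.9) and 21.2 CPM (13.8 to 31), and Hspa8 at 1001 (973 to 1029), 1067 (1030.5 to 1104) and 371 CPM (337 to 406), so both were lower at P60 than at either younger age. Median depths of these groups were 6670, 4092 and 3731 UMIs. In groups of higher but like share Hspa1a did differ. Group 2 at P3, where immediate early genes took 7945 CPM, held 10.5 CPM of Hspa1a (8.07 to 13.5). Group 3 at P15, where they took 7845 CPM, held 4.96 CPM (2.94 to 7.84). The highest group at P60, where they took 8299 CPM, held 2.4 CPM (0.653 to 6.14). Neither overlapped group 2 at P3. With the 25% of cells highest in immediate early genes left out of each library, the log2 ratio of P60 over P3 was -2.66 for Hspa1a, -1.47 for Dnajb1 and -1.34 for Hspa8. The cells kept still differed in immediate early level, since group 3 at P3 took 12358 CPM and the highest group at P60 took 8299 CPM. In a P3 cluster of 226 cells with 4 immediate early genes among its 10 leading genes (Fosb, Nr4a1, Fos and Atf3), Hspa1a stood at 32.6 CPM, the highest of the 6 AT1-like clusters, and Hspa8 at 1062 CPM, within their range of 983 to 1135. Hspa1a was among the leading genes of that cluster, though clusters were formed without the members and the immediate early genes. Over single cells thinned to 2000 UMIs any pair of members had a Pearson r between -0.06 and 0.15 in every library. At P3 the genes nearest to Hspa1a were Fosb and Egr1 (0.10 each), Fos (0.09), Dusp1 (0.08) and Selenbp1 (0.07), over 2833 cells of which 68 held a Hspa1a UMI. Such weak values in sparse counts are no finding.

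Hspa1a and Hspa1b aside, the widest range among AT1-like clusters of a library was that of Hspb1 at P60, followed by that of Dnajb1. Hspb1 ranged from 39 CPM (17.9 to 74.1) in a cluster of 103 cells with 28.7% Malat1 to 196 CPM (147 to 255) in one of 114 cells with 5.03% Malat1, and their median depths were 2108 and 2042 UMIs. Dnajb1 was lowest and highest in the same clusters, at 8.68 CPM (1.05 to 31.3) and 39.1 CPM (19.5 to 70.0), which overlapped. At P15 Hspa8 ranged from 809 CPM (771 to 848) in a cluster of 629 cells led by Lars2, Neat1 and mitochondrial genes to 1558 CPM (1508 to 1609) in one of 515 cells led by Pabpc1 and Bex4. The latter was lowest in Hspa5, at 235 CPM (216 to 255), against 446 CPM (423 to 469) in a cluster of 424 cells led by interferon-responsive genes such as Isg15. In AT2-like cells 1 cluster of 270 cells, led by S100a6, Lgals3, Clu and Krt8 but also Acta2, Myl9 and Pf4, was highest in Hspa8 (741 CPM), Hsp90aa1 (312 CPM), Hsp90ab1 (593 CPM), Hspb1 (172 CPM) and Dnajb1 (35.9 CPM) and lowest in Dnaja1 (107 CPM). Among other cells, the P3 cluster led by club and ciliated genes held 1245 CPM of Hsp90aa1 (1195 to 1298) and 1417 CPM of Hsp90ab1 (1363 to 1473).

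Among the remaining heat shock protein genes the largest difference between cell types was in Cryab, a small heat shock protein like Hspb1. It stood at 1399, 2339.9 and 1971 CPM in AT1-like cells of rising age and at 73.2 CPM in AT2-like cells, 26.9-fold lower (25 to 29). Hspb8, its relative, stood at 93.8 CPM in AT1-like and 28.4 CPM in AT2-like cells at P60. Both were past 2-fold lower in AT2-like cells under each scaling, whereas Hspb1 turned with the scaling. Of the other HSP70 and HSP110 genes 2 of 3 were lower (Hspa4 and Hspa4l) and 0 higher, and of the other DnaJ genes 5 of 11 were lower and 0 higher, with a median of -0.97. Of all genes compared 40.4% were lower, with a median of -0.73, so the DnaJ count is near the background. By the trimmed mean 0 of 4 and 0 of 13 of these were lower, and without Malat1 in the total 2 of 3 and 9 of 17. Over age, Hspa4l, an HSP110 of the HSP70 superfamily, stood at 24.7, 35.6 and 72.7 CPM in AT1-like cells, 2.94-fold higher at P60 than at P3 (2.59 to 3.33). Of 12 other DnaJ genes 1 was higher (Dnajb2) and 1 lower (Dnajb4) from P3 to P60, where 13.1% and 9.66% of all genes were. Between P3 and P15 and between P15 and P60, 0 of 12 differed 2-fold, where 15.9% and 8.32% of all genes did. Dnajb4 stood at 128, 70.1 and 50.7 CPM, 2.52-fold lower at P60 than at P3 (2.24 to 2.83).

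The 2-fold counts of HSP70 and HSP90 cochaperones from P3 to P15 and from P15 to P60 were near the background. In either direction 15.9% and 8.32% of all genes differed 2-fold there. From P3 to P60 the count was below the background. Of 11 compared from P3 to P15, 1 was 2-fold higher (Bag1) and 1 lower (Fkbp4), where 9.25% and 6.63% of all genes were. Of 10 compared from P15 to P60, 0 were higher and 1 lower (Bag1), where 3.85% and 4.47% of all genes were. Of 11 compared from P3 to P60, 0 were either, where 22.8% of all genes were. Bag1, a nucleotide exchange factor of HSP70, stood at 182, 488 and 196 CPM in AT1-like cells and so was highest at P15, as Hspb1 was. In AT2-like cells 2 of 11 were higher and 2 lower (Bag6 and Sugt1), where 13.4% and 40.4% of all genes were, and by the trimmed mean 3 of 13 were higher and 0 lower, with a median of 0.37 against -0.38. The higher genes were Ppid and Fkbp4, peptidyl-prolyl isomerases that bind HSP90. Ppid was 4.89-fold higher (4.13 to 5.82) at 119 against 24.3 CPM and Fkbp4 2.61-fold higher (2.36 to 2.89) at 198 against 75.8 CPM. Both were past 2-fold higher under each scaling.

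Of 20 other genes known as heat shock factor targets, 14 were compared from P3 to P15. Of these 0 were higher and 1 lower (Fkbp4), where 9.25% and 6.63% of all genes were. From P15 to P60, 1 of 14 was higher (Hspa4l) and 2 lower, Serpinh1 among them, where 3.85% and 4.47% of all genes were. From P3 to P60, 1 of 15 was higher (Hspa4l) and 1 lower (Dnajb4), where 13.1% and 9.66% of all genes were. In AT2-like cells 1 of 14 was higher (Fkbp4) and 4 were lower (Cryab, Serpinh1, Hspb8 and Hspa4l), where 13.4% and 40.4% of all genes were. The list's median log2 ratio was -0.31, -0.06, -0.51 and -0.63 in these comparisons, against 0.13, -0.04, 0.12 and -0.73 over all genes. The last list median was 0.13 by the trimmed mean, with 3 higher and 3 lower of 15. Serpinh1, a collagen chaperone of the endoplasmic reticulum, stood at 414, 623 and 249.9 CPM in AT1-like cells and at 54.9 CPM in AT2-like cells, 4.56-fold lower (4.14 to 5.03). The regulator Hsf1 was low at 15.4, 22.1 and 22.5 CPM in AT1-like cells and 7.93 CPM in AT2-like cells, and Hsbp1, whose protein binds heat shock factor, stood at 369.9, 369.9, 245 and 202 CPM.

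Few endoplasmic reticulum genes differed 2-fold over age. Of 22 compared from P3 to P15 and 22 from P15 to P60, 0 were 2-fold higher or lower, where 15.9% and 8.32% of all genes were. Of 20 compared from P3 to P60, 1 was higher (Derl2) and 1 lower (Atf4), where 13.1% and 9.66% of all genes were. Their medians were -0.16, -0.09 and -0.21, against 0.13, -0.04 and 0.12 over all genes. In AT2-like over AT1-like cells 1 of 21 was higher (Fkbp2, at 330.0 against 133 CPM) and 2 lower (Dnajc3 and Derl2), where 13.4% and 40.4% of all genes were. The list median was 0.19 against -0.73 over all genes. By the trimmed mean 9 of 24 were higher and 0 lower, with a median of 0.86 against -0.08 over all genes, and without Malat1 in the total the median was -0.10. Hsp90b1, the HSP90 of this compartment, stood at 409, 324, 314 and 475 CPM, and Xbp1, a transcription factor of the unfolded protein response, at 78, 66.8, 113 and 157 CPM.

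Mitochondrial chaperones, the TRiC chaperonin with prefoldin, and the proteasome share protein folding and clearance with the members. Of 6 mitochondrial chaperone genes 1 was 2-fold higher from P3 to P15 and from P3 to P60 (Grpel2, at 29.9, 107 and 77.2 CPM). Of all genes 9.25% and 13.1% were higher there. Between cell types 0 of 6 differed 2-fold, where 53.7% of all genes did, though 3 of 7 were higher in AT2-like cells by the trimmed mean. Of 13 TRiC and prefoldin genes 0 differed 2-fold between P3 and P15 or P15 and P60, where 15.9% and 8.32% of all genes did. From P3 to P60, 2 were lower (Cct5 and Pfdn5), where 9.66% of all genes were. In AT2-like cells 1 was higher (Pfdn5) and 4 were lower, where 13.4% and 40.4% of all genes were, and by the trimmed mean 0 were lower. Of 34 ubiquitin and proteasome genes 0 were higher and 10 lower in AT2-like cells, a share below the 40.4% of all genes. By the trimmed mean 1 was higher and 2 lower, and without Malat1 in the total 18 of 35 were lower. Over age Psmc1, an ATPase subunit of the proteasome, stood at 68.4, 139 and 189.6 CPM in AT1-like cells, 2.77-fold higher at P60 than at P3 (2.57 to 2.99). Over all lists and comparisons, with a gene counted once in each comparison, 32 of 97 differences past 2-fold were below 2-fold under at least 1 of the other scalings.

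Genes with the pattern most like each member over the 4 libraries were taken from 2066 genes by the root mean square distance of centred log2 CPM. For Hspa1a these were Gm10709 (0.17), Jun (0.20) and Nnat (0.27), and Jun stood at 1611, 408, 165 and 275 CPM. For Dnajb1 they were Slc38a2 (0.13), Btg2 (0.14), itself an immediate early gene, and Fgfbp1 (0.15), and for Hspa8 S100a10 (0.13), Kctd10 (0.15) and Slc38a2 (0.22). The closest to Hsp90aa1 were Stx8 and Anxa7 (0.05 each) and Ppp1r11 (0.09), and to Hsp90ab1 Hnrnpr (0.06), Ssb (0.08) and Kif5b (0.13). Hspb1 was closest to Carkd (0.04), Dnaja1 to Atp5f1 (0.04), Hspa5 to Taf10 (0.07) and Hspa1b to Eif3c (0.03). Hspa1a and Hspa1b rest on few UMIs, and over 4 libraries the distances are a description.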

How the data were processed

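The deposited tables hold natural log values, which the authors made by scaling each cell to 10000 UMIs and adding 1, as the values show. Cell Ranger 1.3.1, Seurat 2.0.0 and the builds mm10 and hg19 are named per the submitters' processing notes, with no role stated for hg19. Whole UMIs were recovered by unlogging for 100% of values within 0.05.

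Each library was clustered alone (Scanpy 1.11.5, igraph 0.11.9, Leiden resolution 0.5, 2000 variable genes, 20 components, 15 neighbours) without the members, the listed chaperone and proteasome genes or the immediate early genes. Cells with 3 or more endothelial, lymphatic, fibroblast, pericyte, immune or platelet markers, 4 or more mesothelial markers, or 5 or more of club or of ciliated cells did not enter the class, which removed 13, 25, 64 and 41 cells from its clusters. A cluster entered the class with 50% of the library's marker level and under 2 markers of another type among its 10 leading genes (largest fold over the other clusters after adding 20 CPM). These thresholds were set after the data were seen. No doublet caller was run here, so doublets may remain.

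UMIs were summed over the class (22567067, 13747282, 6345438 and 10208597) and given as CPM with exact Poisson intervals (SciPy 1.17.1), ratios with exact conditional Poisson intervals and shares with exact Clopper-Pearson intervals. With 1 library a group no test was made. The code was tested on simulated data. Named genes were the members, up to 3 genes of each list and comparison with the largest ratio at 100 CPM or more, the 3 closest patterns per member and the 5 genes most correlated with Hspa1a over cells, of which only those at P3 are given. Hspa4, Hspa4l, Hspb8 and other list genes outside this rule were named after their values were seen, since they make up small counts. Results of some listed genes are not reported here. The members and lists were chosen with earlier results of these data known. Coordinates are those of GENCODE on mm10, and promoters those of RefSeq on GRCm38.p6.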

Additional observations from a re-analysis of the deposited data

How the results depend on the processing

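No paired analysis was possible because each group is 1 library. Each member ratio was recomputed in 12 alternatives (other scalings, clusterings, cell sets and weights), 2 of which were chosen after seeing the data, namely leaving out the 25% of cells highest in immediate early genes and leaving out clusters under 75% of the class median depth. Hspa8 and Dnajb1 were lower in AT1-like cells at P60 than at P15 in all 12, by log2 ratios of -1.66 to -1.39 and -1.45 to -1.13, and than at P3 in all 12, by -1.62 to -1.18 and -1.93 to -1.47. Hspa1a kept its direction in all 12 for each pair of AT1 ages. Counts of members changed as follows. From P3 to P15 1 was lower with ribosomal, mitochondrial and haemoglobin genes left out of the total (Hsp90ab1), and 1 (Hspa1a) with a minimum of 10 CPM and 10 UMIs or with no minimum, both chosen for the members after seeing the data. Hspa1a also made 3 lower in place of 2 from P3 to P60 with either of these, and from P15 to P60 with no minimum. From P3 to P60 1 was higher without Malat1 in the total (Hsp90aa1). In AT2-like over AT1-like cells 2 were higher (Hspa8 and Dnaja1) and 0 lower by the trimmed mean and by the median of ratios, and 2 were lower (Hsp90aa1 and Hsp90ab1) without Malat1. Among all genes, leaving ribosomal, mitochondrial and haemoglobin genes out gave 198 higher and 338 lower from P3 to P15 (304 and 218 as reported) and 520 lower from P3 to P60 (334). Without Malat1, 247 were higher from P15 to P60 (132) and 715 from P3 to P60 (453), where the trimmed mean gave 265 and the median of ratios 272. In AT2-like over AT1-like cells these gave 944 higher and 827 lower, and 996 and 800 (468 and 1413). A minimum of 10 CPM gave 550 higher and 487 lower from P3 to P15, 478 and 299 from P15 to P60, 1091 and 650 from P3 to P60, and 837 and 3227 between cell types. No minimum gave 1001 and 1376, 1301 and 497, 1894 and 941, and 1076 and 3817. The cause was not tested beyond the construction of each setting. With 1 library a group no replicate could be left out. Hspa1a and Hspa1b rest on 11 to 337 UMIs, and 3 UMIs over all cells of a library correspond to 0.113 to 0.412 CPM.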
